A study of Mus musculus with 2 samples.

Results

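Small nucleolar RNA genes long enough to be quantified were described in the midbrain of mouse embryos. They were taken as the Ensembl genes with a symbol that starts with Snord, Snora or Scarna and a number, and with an effective length above 0 in both libraries. Of 147 genes with such a symbol, 59 met the rule, among 41128 Ensembl genes measurable in the same way. They comprised 11 of 97 Snord genes, 41 of 41 Snora genes and 7 of 9 Scarna genes. The tissue came from the B6NCrl strain at embryonic day 15.5, with no genotype change or treatment named in the labels. RNA was pooled from 78 embryos in replicate 1 and 62 in replicate 2, males and females together, which gave 2 libraries of 1 group. Per the labels, the size range of the RNA was above 200 nt, and 10 ng entered each library. Each value therefore averages over many embryos and all cell types of the midbrain, and a low value from fewer cells cannot be told apart from one with less RNA per cell.

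Small nucleolar RNAs guide chemical changes of other RNAs by base pairing. Box C/D RNAs (Snord) direct methylation of riboses, and box H/ACA RNAs (Snora) direct the change of uridine to pseudouridine, mostly in ribosomal RNA. A few serve in the cutting of the ribosomal precursor instead, and the small Cajal body RNAs (Scarna) act on spliceosomal RNAs. Most mammalian members lie in introns of host genes, are trimmed out of the spliced intron and are held by a set of core proteins of their class.

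The sequence features of the classes are shown first, for members that led their class in counts and for a pair of near copies. The sequences are the GENCODE M21 transcripts on build GRCm38 (mm10), from 5′ to 3′. In the H/ACA members below, capitals mark ACA placed exactly 3 bases before the 3′ end. Snora64 lies at chr17:24720772-24720905 (+ strand), in the ribosomal protein gene Rps2. Snora41 lies at chr1:63179004-63179135 (+ strand), in an intron of Eef1b2, a translation elongation factor gene. Snora28 lies at chr12:111540941-111541067 (+ strand), in the translation initiation factor gene Eif5, and its record has no ACA at that place.
Snora64: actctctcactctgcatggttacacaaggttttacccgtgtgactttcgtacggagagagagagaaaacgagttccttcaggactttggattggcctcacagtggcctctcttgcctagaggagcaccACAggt
Snora41: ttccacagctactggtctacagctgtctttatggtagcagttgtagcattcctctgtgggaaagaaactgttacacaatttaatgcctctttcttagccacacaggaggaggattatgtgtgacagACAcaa
Snora28: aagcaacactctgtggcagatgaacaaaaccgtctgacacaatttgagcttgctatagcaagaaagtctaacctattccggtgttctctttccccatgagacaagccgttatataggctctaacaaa

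Snora73a and Snora73b, together known as U17 or E1, act in the processing of the ribosomal precursor. They lie at chr4:132352775-132352979 and chr4:132352322-132352526 (− strand), in introns of Rcc1, the nucleotide exchange factor of the Ran GTPase, and are shown for their likeness. They were identical at 198 of 205 bases (96.6%).
Snora73a: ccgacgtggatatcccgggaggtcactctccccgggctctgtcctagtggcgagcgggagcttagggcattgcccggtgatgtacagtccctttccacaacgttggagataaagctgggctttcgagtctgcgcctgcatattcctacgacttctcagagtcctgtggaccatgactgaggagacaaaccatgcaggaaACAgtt
Snora73b: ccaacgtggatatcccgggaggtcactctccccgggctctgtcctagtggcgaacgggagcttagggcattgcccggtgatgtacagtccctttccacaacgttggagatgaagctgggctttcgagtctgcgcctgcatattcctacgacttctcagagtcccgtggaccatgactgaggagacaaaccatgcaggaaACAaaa

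For box C/D members, capitals mark the C box core TGATGA within the first 15 bases and the D box CTGA within the last 12 bases. Snord17 lies at chr2:144265979-144266216 (− strand), in an intron of the sorting nexin gene Snx5, and carried both. Snord118 encodes the U8 RNA, which is needed for the processing of large-subunit ribosomal RNA. It lies at chr11:69073427-69073561 (+ strand), outside any same-strand host gene of the annotation, and only the D box was found in these windows.
Snord17: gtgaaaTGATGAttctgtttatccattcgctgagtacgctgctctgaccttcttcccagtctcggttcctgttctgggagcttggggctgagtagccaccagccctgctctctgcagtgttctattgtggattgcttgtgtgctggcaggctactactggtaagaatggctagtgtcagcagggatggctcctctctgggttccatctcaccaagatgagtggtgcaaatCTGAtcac
Snord118: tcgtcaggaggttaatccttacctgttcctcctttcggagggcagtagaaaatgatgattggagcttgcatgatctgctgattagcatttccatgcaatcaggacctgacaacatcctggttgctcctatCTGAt

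Scarna13 had the most counts of the Cajal body members and is shown with its ACA in capitals. It lies at chr12:105031075-105031349 (− strand), in an intron of the long noncoding RNA gene Snhg10.
Scarna13: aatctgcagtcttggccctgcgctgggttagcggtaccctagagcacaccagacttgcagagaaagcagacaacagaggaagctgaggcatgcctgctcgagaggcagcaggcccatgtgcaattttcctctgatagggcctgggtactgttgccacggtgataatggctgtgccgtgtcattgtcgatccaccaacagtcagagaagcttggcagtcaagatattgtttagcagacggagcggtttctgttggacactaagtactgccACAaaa

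The motifs followed the class names, searched on the transcript strand only. ACA at that place was found in 34 of 41 Snora genes (82.9%), 2 of 7 Scarna genes and 0 of 11 Snord genes, against 2.45% of all annotated transcripts. The D box was found in 10 of 11 Snord genes (90.9%), 3 of 41 Snora genes and 3 of 7 Scarna genes, against 5.76% of all transcripts. The C box core was found in 6 of 11 Snord genes (54.5%), 0 of 41 Snora genes and 2 of 7 Scarna genes, against 0.519% of all transcripts. The 6 Snord genes with the C box also had the D box. A match describes these letters only.

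Length decided which genes could be measured at all. The deposited effective length, the number of places where a fragment could start, was 99 nt shorter than the gene length in 59 of 59 members. The 88 genes left out were 64 to 99 nt long, 86 of them Snord genes, and held 0 counts in both libraries. The 11 Snord members, from 104 to 238 nt, say nothing of the many shorter box C/D RNAs. Members had a median length of 133 nt and a median effective length of 34 nt. Of the 59, 51 were shorter than 200 nt, the lower end of the size range in the labels; how much of such RNA was kept in the libraries was not tested.

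**Figure D1:**
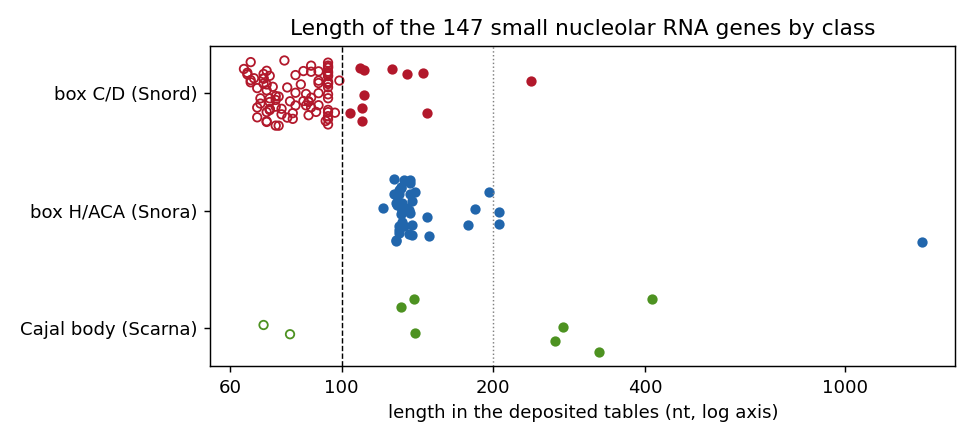
Length in the deposited tables (nt, log axis) of the 147 genes by class, with filled points for the 59 measurable members and open points for the 88 others. Nearly all box H/ACA genes lie between the dashed line at 100 nt and the dotted line at 200 nt, most box C/D genes lie below 100 nt, and the point far to the right is the Snora43 record described in the text.

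The members together held few counts. Their sum was 433 expected counts in replicate 1 and 481 in replicate 2, of library totals of 38966386 and 40419493, which is 0.00111% and 0.00119%. Expected counts are estimates that may split a read between genes, so they need not be whole. Of the 59 members, 11 had 0 counts in both libraries, 20 had 0 in only one, and 28 were above 0 in both. The median member had 1 count in each library. A mean of 10 or more counts was reached by 5 members, from 5 to under 10 by 6, from 1 to under 5 by 21, and above 0 but under 1 by 16.

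On the TPM scale, which divides counts by effective length and scales the sum over all genes to a fixed total, the same members looked far more abundant. The median member had 1.13 TPM in replicate 1 and 1.15 in replicate 2, against 0.16 and 0.17 over all measurable genes. In log2(TPM + 1) the median over members was 1.10 ± 0.0095 (SD of the medians of 2 libraries, n = 2). Each library had at least 1 TPM for 23 members, comprising 18 Snora, 2 Snord and 3 Scarna genes, which is 39% of the members against 37.3% of all measurable genes. Of these 23 members, 18 had a mean under 10 counts. In a gene of 130 nt, 1 count equalled 1.38 TPM in replicate 1 and 1.34 in replicate 2, so a single count passed the 1 TPM line. The limit that a count of 0 allows, taken as 3 counts, was 4.14 and 4.01 TPM for such a gene, against 0.143 and 0.138 TPM for a gene of 1000 nt. The number of members past the line fell to 4 when 10 counts in both libraries were required instead, and rose to 53 with the authors' posterior mean TPM.

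**Figure D2:**
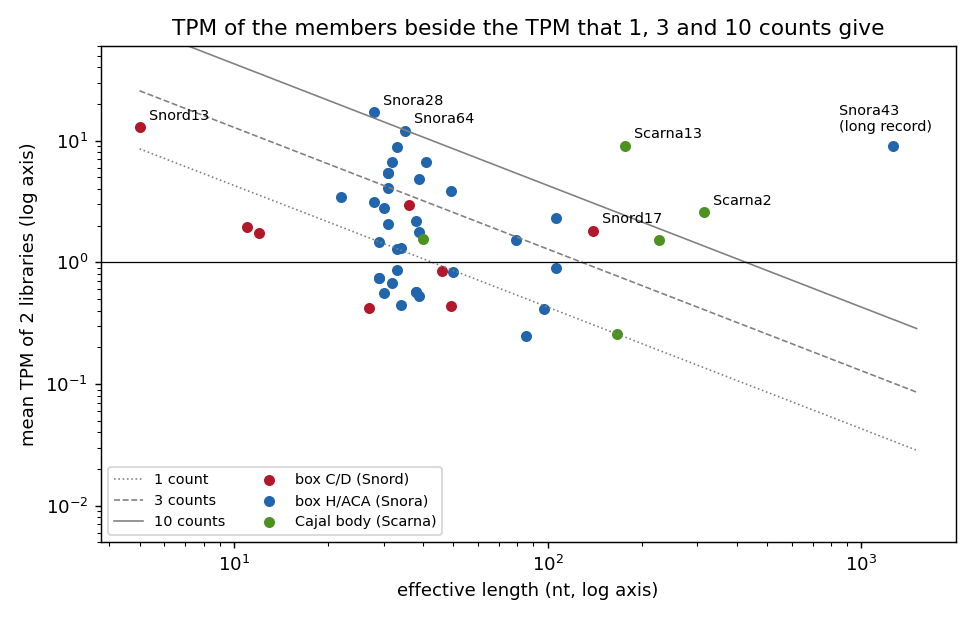
Mean TPM of the 2 libraries (log axis) against effective length (nt, log axis) for the 48 members above 0 in either library, coloured by class, with grey lines at the TPM that 1, 3 and 10 counts give at the depth of replicate 1. Most box H/ACA members crowd near an effective length of 34 nt between the lines for 1 and 10 counts. Scarna13, Scarna2, Snora28 and the long Snora43 record stand above the line for 10 counts.

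The box H/ACA genes held most of the counts, but the leading record was not of snoRNA size. The gene ENSMUSG00000097052, named Snora43, had 268 counts in replicate 1 and 299 in replicate 2, or 9.10 and 9.02 TPM. It alone took 62.0% and 62.3% of all counts of the members. In the deposited transcript tables it consists of 2 transcripts of 741 and 2366 nt. They took 61.9% and 38.1% of its TPM in replicate 1, and 54.8% and 45.2% in replicate 2. In counts the 2366-nt transcript held more, with 184 in replicate 1 and 223 in replicate 2, against 84.5 and 76.5 for the 741-nt one. The GENCODE M21 record of the same identifier is 139 nt long (chr2:26637847-26637985, − strand) and lies within the RefSeq long noncoding RNA gene Snhg7. Its counts are therefore those of the long transcripts in the tables. A second record named Snora43, 127 nt long and contained in the 139-nt sequence, had 2.80 and 1.37 counts. Totals are given below with and without the long record.

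Without it, the 40 other Snora genes held 87.7 counts in replicate 1 and 96.5 in replicate 2, which was 53.3% and 53.2% of the counts of the remaining 58 members. Snora28 led in TPM, with 10 and 13 counts, or 15.3 and 19.3 TPM. Snora64 followed at 9.94 and 10.16 counts, or 12.16 and 12.04 TPM, and its read assignment was ambiguous. Both sites overlap annotated exons of their host genes, and every window of 100 nt in either gene also occurs in a host transcript of GENCODE M21. Snora41, within an intron, had 7 counts in each library, or 9.08 and 8.80 TPM. No clear difference between the 2 pools was seen in these 3 genes, but at 7 to 13 counts similarity is not shown either. The intervals given below for Snora28 and Snora64 include a 2-fold difference.

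The other 4 H/ACA members among the 10 highest by TPM were Snora7a, Snora68, Snora31 and Snora65. Snora7a, in Rpl32, had 6 and 7 counts (6.27 and 7.08 TPM). Snora31, in an intron of Tpt1, which encodes translationally controlled tumour protein, had 4 in each library (5.52 and 5.35 TPM). Snora68 had 7 and 3 (9.37 and 3.89 TPM). Snora68 thus differed more between the libraries than the first pair, but its 95% exact Poisson intervals, 2.81 to 14.4 counts in replicate 1 and 0.619 to 8.77 in replicate 2, overlapped. Snora65, in Rpl12, had 6.17 and 1.71 counts (8.53 and 2.28 TPM), and its read assignment was ambiguous. At such counts the order of the members by TPM is not resolved. Intervals and limits cover counting error only, since copies of 1 molecule made by PCR were not told apart.

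The near copies Snora73a and Snora73b differed between the libraries in opposite directions, and the read assignment of both was ambiguous. Snora73a had 0 counts in replicate 1 and 4.64 in replicate 2, while Snora73b had 8.94 and 2.57. Their sum was 8.94 and 7.21 counts, a ratio of 0.782 between the libraries with a 95% exact interval of 0.239 to 2.27. Every window of 100 nt in both also occurs in another annotated transcript, Gm17300 on the opposite strand for both and the noncoding host Snhg3 for Snora73a. Whether strand was used in counting is not given in the sources used here.

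The Cajal body genes were few and came after the Snora genes in summed counts, but Scarna13 and Scarna2 were the single genes highest in counts once the long record was left aside. The 7 genes held 59.6 counts in replicate 1 and 76.8 in replicate 2, or 36.2% and 42.4% of the counts of the 58 members. Scarna13 had 34 and 42 counts, or 8.27 and 9.90 TPM, from a gene of 275 nt. Scarna2, 414 nt long (chr3:108554338-108554751, − strand) and outside any same-strand host, had 15 and 24 counts, or 2.04 and 3.16 TPM. The 95% exact Poisson interval in replicate 1 was 23.5 to 47.5 counts for Scarna13 and 8.40 to 24.7 for Scarna2. Neither gene shared a window with another transcript. Scarna10, 325 nt long and in the condensin gene Ncapd2 (chr6:125186359-125186683, − strand), had 9.58 and 6.82 counts, or 1.81 and 1.25 TPM. Its assignment was ambiguous, and 81.4% of its windows were shared. Scarna6, 265 nt long in an intron of the autophagy gene Atg16l1, had 1 count in each library. Scarna3b, in Dcaf5, had 0 and 3 counts, and Scarna3a and Scarna8 had 0 in both. Long genes of this class thus ranged from 1 count to 42.

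The box C/D genes were the lowest class in counts. The 11 Snord genes summed to 17.3 counts in replicate 1 and 8 in replicate 2, and none reached a mean of 10. Snord17 had 6 counts in each library, or 1.85 and 1.79 TPM. Snord118, the U8 gene, had 4 and 1, or 4.76 and 1.15 TPM. Snord17 was the steadier of the pair, although the interval for 1 count runs from 0.0253 to 5.57. Snord13, the U13 RNA that guides acetylation of small-subunit ribosomal RNA, had 3 counts in replicate 1 and 0 in replicate 2. Its gene is 104 nt long with an effective length of 5 nt, so the 3 counts became 25.7 TPM, the highest TPM of any member in either library. The exact interval for 0 counts runs up to 3.69, so the 2 libraries were not distinguishable at this depth. Snord15b, in Rps3, had 1.81 and 0 counts, and Snord15a, in an intron of the same gene, had 1 and 0. Snord89 had 1 and 0 counts, which gave 3.89 TPM in replicate 1 from an effective length of 11 nt.

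Ranks by count and by TPM were therefore only partly alike. The 10 highest members by mean count and the 10 highest by mean TPM shared 6 genes. The 10 highest by TPM ran from 5.41 to 17.3 TPM, and 6 of them had a mean under 10 counts. Over the 59 members the Spearman correlation of mean count with mean TPM was 0.90, a description over genes that share the same libraries. The count in replicate 1 and that in replicate 2 had a Spearman correlation of 0.54.

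**Figure D3:**
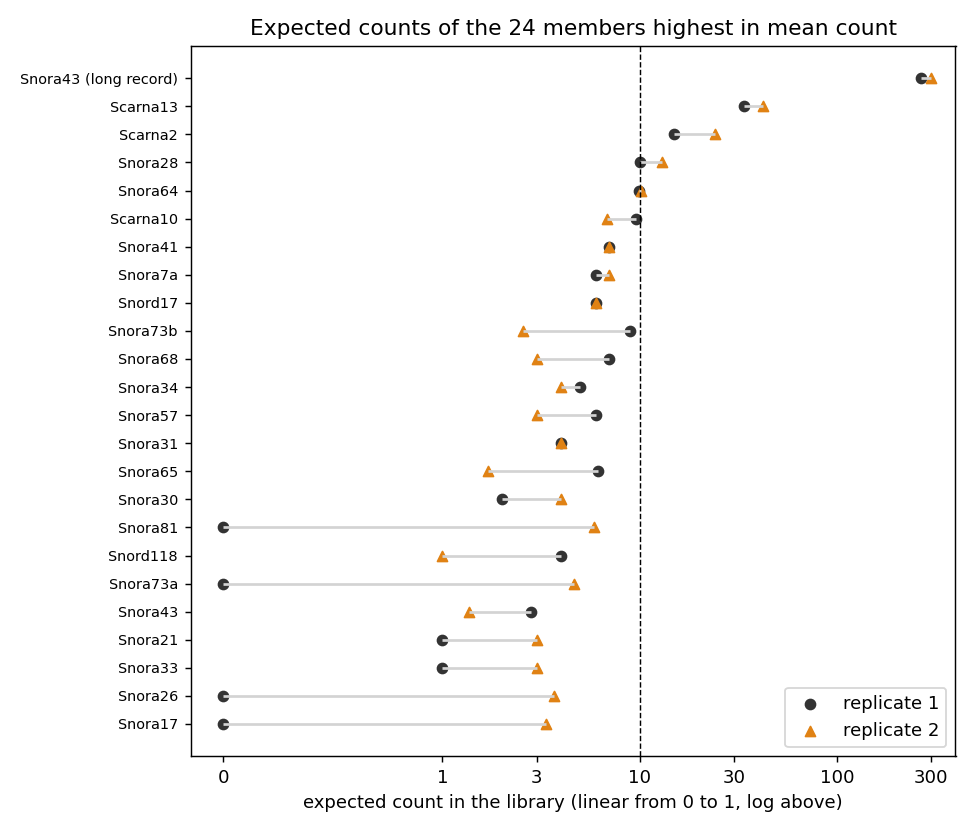
Expected counts in replicate 1 (circles) and replicate 2 (triangles) of the 24 members highest in mean count, on an axis that is linear from 0 to 1 and logarithmic above, with a dashed line at 10 counts. Snora43 (the long record), Scarna13, Scarna2 and Snora28 lie at or above the line in both libraries, and several members below it, such as Snora81 and Snora73a, were at 0 in replicate 1 only.

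Longer members held more of the counts only when the long Snora43 record was included. The 8 members of 200 nt or more took 79.2% of the members' counts in replicate 1 and 80.4% in replicate 2. Without the long Snora43 record, 7 such members summed to 74.5 and 87.0 counts, while the 51 shorter members summed to 90.1 and 94.3. On the log2(TPM + 1) scale the median of the longer members was 0.55 ± 0.15 above that of the shorter ones (SD over 2 libraries, n = 2). This order is not a stable one, since it turned to −0.68 with members of a mean of 10 or more counts only, and to −0.36 with posterior mean TPM.

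Members, without the long Snora43 record, were set beside other Ensembl genes of like length. From 100 to 149 nt, 2 of 48 members (4.17%) reached a mean of 10 counts, against 13 of 3201 other genes (0.406%). These 2 were Snora28 and Snora64, which overlap exons of their hosts and share every window of 100 nt with a host transcript. Whether their reads came from the host was not tested. From 150 to 199 nt it was 0 of 3 members, against 13 of 613 other genes (2.12%). Among other genes the share was 4.42% from 200 to 299 nt and 9.46% from 300 to 499 nt, where 1 of 5 and 1 of 2 members reached it, namely Scarna13 and Scarna2. Over all measurable genes it was 44.4%. The differences between these shares were not tested.

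Most host genes had far higher TPM in these libraries than the members inside them. Of the 59 members, 28 lay in an intron of a same-strand host, 24 overlapped an annotated host exon and 7 had no such host. Hosts were protein coding for 41 members, and 13 members with a host row lay in 12 ribosomal protein genes. For 47 members the host had a row in the tables, and 46 of these were in hosts at 1 TPM or more in both libraries. The median member stood at 0.543% of its host's TPM in replicate 1 and 0.978% in replicate 2. With the members at 0 set to 3 counts, these medians were 3.75% and 3.37%, so they are limited by depth.

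The 2 members with a host row and a mean of 10 counts were Snora28 and Snora64. Snora28 stood at 10.4% and 12.2% of the TPM of Eif5, which had 147 and 158 TPM. Snora64 stood at 1.98% and 2.09% of Rps2, which had 613 and 576 TPM. In counts per nt of annotated length, the median of the 2 members was 6.27 ± 0.10 lower than the hosts on the log2 scale (a difference of −6.27). The ± is the SD over the 2 libraries, while the members lay further apart, at −5.22 for Snora28 and −7.33 for Snora64. Both overlap exons of their hosts and share every window of 100 nt with a host transcript. Whether their reads came from the host was not tested. Snora41, an intronic member, stood at 2.31% and 2.42% of Eef1b2, and Snord17 at 3.63% and 3.50% of Snx5. All 4 of these members were below their host in both libraries.

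Members were ranked against hosts by the mean log2 difference in counts per nt of annotated length, with a small value added before taking logs. The 5 highest members in this ranking lay in hosts with mean levels from 0.76 to 30.8 TPM. Percent of host TPM gives another order, so this range holds for the log2 ranking only. Snora28 stood at 10.4% and 12.2% of Eif5, a host at 147 and 158 TPM. Snord90 and Scarna3b stood at 27.1% and 15.6% in replicate 2, and at 0% in replicate 1. Snord89 lies in Gm15832, which had 0.68 and 0.84 TPM, and was the only member above its host in TPM, in replicate 1 only and from 1 count. Snora78, in an intron of the noncoding gene Snhg9, had 1 count in each library, at 13.2% and 8.28% of the host's TPM. Snora35 lies in an intron of the serotonin receptor gene Htr2c, a gene of the nervous system with 4.01 and 4.84 TPM here, and had 1 count in replicate 1 and 0 in replicate 2. Snora73b stood at 11.3% and 3.37% of Rcc1. Its site also lies within the RefSeq gene Snhg3, which had 38.9 ± 1.80 TPM and was not used as its host. Scarna8, in Haus6 at 5.29 and 4.64 TPM, was listed at 0, and ranks here only through the value added before taking logs.

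At the other end were members of abundant hosts. Snora52, in Rplp2 at 493 and 521 TPM, and Snora15, in the chaperonin gene Cct6a at 367 and 365 TPM, were at 0 counts in both libraries. Snora62, in Rpsa at 437 and 414 TPM, had 0 and 2 counts. Snord15a, in Rps3 at 311 and 302 TPM, and Snora70, in Rpl10 at 318 and 330 TPM, had about 1 count in a single library each. These 5 hosts were all above 300 TPM, while their members held at most 2 counts in a library. The ranking divides by the host value, so among members with so few counts it selects abundant hosts. The level of these hosts is therefore no separate result. The Spearman correlation of log2(TPM + 1) between member and host was 0.32 over 47 members, and 0.21 over the 26 intronic ones; the members share libraries, and some share a host.

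**Figure D4:**
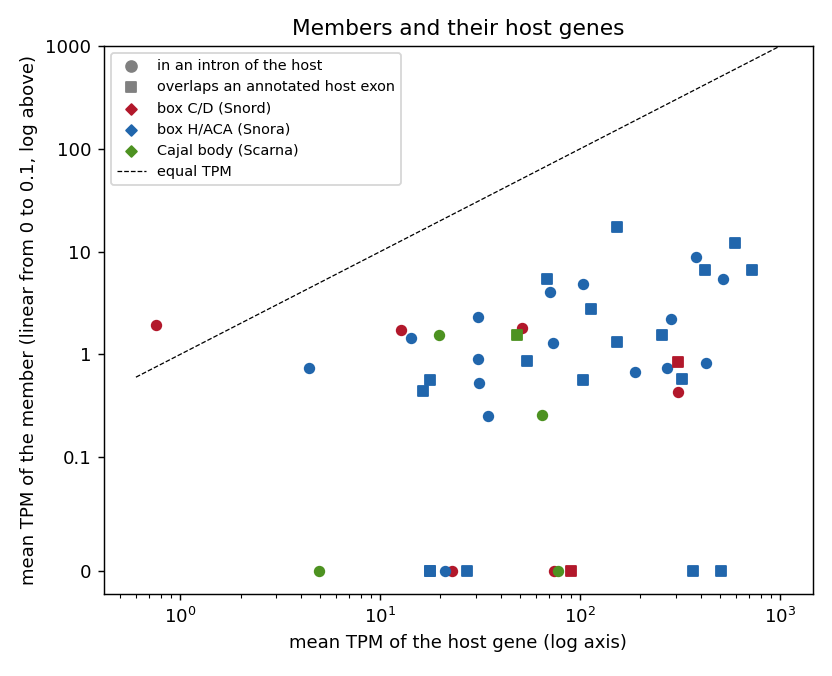
Mean TPM of the member (linear from 0 to 0.1 and logarithmic above) against mean TPM of its host gene (log axis) for 47 members, with circles for intronic members, squares for members that overlap an annotated host exon, and the dashed line at equal TPM. Snord89 alone lies above the line, and members at 0 occur in hosts from 4.97 to 507 TPM.

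Read assignment divided the members by whether their sequence was unique. Of 57 members whose length in the tables matched the M21 record, 29 had no window of 100 nt in common with the transcript of another gene. All 29 had whole counts, and none was ambiguous, meaning a posterior SD above 10% of the posterior mean count. The other 28 shared at least 1 window, and 18 of them were ambiguous. Snora28 and Snora7a had whole counts although all their windows are shared with a host transcript in M21; the tables were made with an earlier release. Scarna13, Scarna2, Snora41, Snora31, Snord17 and Snord118 belong to the members without a shared window.

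Between the libraries, no member was found to differ. The test compared the 2 libraries, not conditions, by a two-sided exact binomial test on rounded counts with Benjamini-Hochberg adjustment over 18269 genes with a mean of 10 or more. A call also needed an adjusted p under 0.05 with a ratio of 2-fold or above, and 298 genes (1.63%) met both. Of the 5 members tested it called 0, and edgeR's exact test also called 0. None of the 5 had an unadjusted p under 0.05 by the binomial test, against 5584 of the 18269 genes. By a 2-fold ratio alone, with no test, 491 genes (2.69%) and 0 of the 5 members differed. Scarna2 had the widest difference, a ratio of replicate 2 to replicate 1 of 1.53 with a 95% exact interval of 0.781 to 3.18. The ratio was 1.25 for Snora28 (0.510 to 3.21), 1.19 for Scarna13 (0.744 to 1.94), 1.08 for the long Snora43 record (0.914 to 1.28) and 0.969 for Snora64 (0.362 to 2.59). With so few counts, differences beyond 2-fold in 3 of these genes lie inside the intervals.

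Sums over the classes were of the same kind. All members together had a ratio of 1.08 (95% exact interval 0.943 to 1.23), and 1.07 (0.856 to 1.32) without the long record. The Snora genes without it had 1.07 (0.783 to 1.43), and the Scarna genes 1.25 (0.876 to 1.77). The Snord genes had 0.447 (0.170 to 1.11), a sum to which Snord13 and Snord118 gave most of the difference. Each interval includes 1.

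The proteins that build snoRNA particles were measured with far more counts. Of 26 such genes, 26 were at 1 TPM or more in both libraries, with a median of 45.4 ± 0.067 TPM (SD of the 2 libraries' medians, n = 2). Between the libraries 0 were called, against 1.63% of all genes tested, and a list this short cannot be told apart from that share. Of the box C/D core, Nop56 had 194 ± 4.78 TPM, Snu13 190 ± 5.36, Nop58 110 ± 1.39 and the methyltransferase gene Fbl 58.0 ± 2.48. Of the box H/ACA core, Nop10 had 127 ± 1.62 TPM, Nhp2 76.0 ± 2.60, the pseudouridine synthase gene Dkc1 48.3 ± 0.389 and Gar1 36.1 ± 2.70. The C/D core thus had the higher median of the 2 sets, 150 ± 1.98 against 62.2 ± 1.496 TPM, though Fbl was below Nop10 and Nhp2. These levels cannot be set against the counts of the snoRNA classes, since 86 of 97 Snord genes were too short to be measured. Phax, an export adaptor of small nuclear RNAs, had 113 ± 3.55 TPM, and the assembly factor gene Naf1 was the lowest of the list at 1.54 ± 0.212.

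The list of long noncoding host genes, which also holds Meg3, spanned mean levels from 2.515 TPM in Snhg18 to 1847 TPM in Meg3. Of 21 listed, 15 had a row under their identifier, and Snhg1, Snhg4, Snhg7, Snhg8, Snhg10 and Snhg16 were not analysed here. The 15 were all at 1 TPM or more in both libraries, with a median of 48.8 ± 1.53 TPM. Again 0 were called, against 1.63% of all genes tested, and this list too is short for that share. Meg3, an imprinted gene of the same domain as the snoRNA cluster host Rian, led with 1847 ± 117 TPM and was assigned as host of no member. Snhg11 had 492 ± 60.3, Gas5 322 ± 7.22, Rian 184 ± 15.7 and Snhg14 165 ± 10.9 TPM, and these too were hosts of no measurable member. Log2 ratios of replicate 2 to replicate 1 were 0.24 for Meg3, 0.34 for Snhg11, 0.19 for Rian and 0.18 for Snhg14. These are under 2-fold, and the 4 genes were the noncoding hosts called when no fold threshold was used. Snhg12, which holds Snora16a, Snora44 and Snora61, had 17.8 ± 1.46 TPM, and of these members Snora44 alone was above 0, at 0.53 and 0.26 counts.

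The midbrain label was checked against regional transcription factor genes. Of the midbrain genes, Otx2 had 66.2 ± 0.177 TPM and Gata3 88.0 ± 9.27, and the dopamine synthesis gene Th had 28.6 ± 0.509. The other 3 were low, with En1 at 10.3 TPM in replicate 1 and 7.60 in replicate 2, Pax7 at 2.85 and 3.09, and En2 at 1.21 and 0.76. The hindbrain and spinal cord genes Hoxa5 and Hoxb5 were near 0, at 0.53 and 0.57 TPM in replicate 1 and 0.02 and 0.07 in replicate 2.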

How the data were processed

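Total RNA sequencing of 2 midbrain libraries was used. Per the file headers, the authors deposited expected counts and TPM per gene, with posterior means and SDs of both, gene lengths and effective lengths. The deposited transcript tables also give the percent of a gene's abundance per transcript. The build was mm10 and the annotation GENCODE M4, per the authors' deposited notes. The aligner and the counter were not given in the sources used here. Symbols came from a table of gene identifiers, which named 42462 of 43346 Ensembl genes. Positions, hosts, motifs and sequences came from GENCODE M21 on the same build, and the extents of Snhg7 and Snhg3 from RefSeq.

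A host was the same-strand gene, no small RNA gene itself, that contains the whole member. Protein coding genes were preferred, then the higher TPM. Libraries were compared by a two-sided exact binomial test on rounded counts with TMM sizes (edgeR 4.0.16, R 4.3.3), 0.5 added for log2 ratios, and checked on simulated data. Totals were 38966386 and 40419493 counts. edgeR's exact test used the common dispersion of an intercept-only fit. With 2 libraries an exact sign-flip test cannot go below p = 0.5, so no p was given for levels. Python 3.11.15, pandas 2.3.3 and scipy 1.17.1 were used.

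The members and lists were chosen with earlier results of these data known. Named were the 10 highest members by TPM and by count, the 5 highest by count in each class, members of 200 nt or more, any member called, the 5 highest and 5 lowest against the host, their hosts (1 is not reported here), and the protein and noncoding host lists. Where Snord members tied for the last place at a mean of 0.5 counts, Snord89 was given. Snora81, Snora16a, Snora44, Snora61 and Scarna3a were named after their values were seen. Alternatives were the TPM line, pseudocount, length scale, posterior values, count minimum, library scaling, fold threshold, DESeq2 1.42.0 size factors and each library alone. Leaving out the long Snora43 record, host values of intronic members with no minimum, and the same settings for the protein and host lists were chosen after seeing the data.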

Additional observations from a re-analysis of the deposited data

How the results depend on the processing

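Depth limits these values: 43 of the 48 detected members had a mean under 10 counts. The 23 members at 1 TPM in both libraries became 4 with 10 counts in both, 53 with posterior mean TPM and 12 with annotated length; each library alone gave 31 to 33. The median log2(TPM + 1) of 1.10 became 0.31 with a pseudocount of 0.1, 3.39 for members with a mean of 10 counts, 1.93 with posterior mean TPM and 0.46 with annotated length, and 1.09 to 1.10 in each library alone. The difference of 0.55 by length became 0.89, −0.68, −0.36 and 0.84 in the same 4 settings, 0.41 with members split at 150 nt, and 0.44 to 0.65 in each library alone. The difference from the host of −6.27 became −4.32 with effective length, −7.26 over 47 members with no count minimum, and −7.05 over 26 intronic ones; each library alone gave −6.35 to −6.20. With members at 0 set to 3 counts, −7.26 became −6.11. The intronic setting with the count minimum left no member with a host row. The median log2 ratio between libraries over the 5 members tested was 0.26, against −0.0011 over all genes, and −0.045 with no count minimum, where 48 members were tested, 1 had an unadjusted p under 0.05 (Snora81, 0.0314, adjusted p 0.156 by the exact binomial test) and none was called. No member was called in any of the settings run, while over all genes edgeR's exact test called 158, the binomial test 298, and the same test with no fold threshold 3534; this last setting called 1 protein gene and 4 noncoding host genes. Without the long Snora43 record, 22 members passed 1 TPM. The cause of these changes was not tested. No paired analysis was possible because there is only 1 group.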

Other observations

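Other annotated snoRNA and scaRNA genes, with symbols outside the rule, numbered 1006 with an effective length above 0. Of these, 855 were at 0 counts in both libraries, 58 were at 1 TPM or more in both and 6 had a mean of 10 or more counts. Gm24853, 121 nt long, was the highest, with 22.8 counts in replicate 1 and 38.5 in replicate 2 (44.4 and 72.5 TPM). Rnu3b2 and Rnu3b4, genes of the U3 RNA that acts in the first cuts of the ribosomal precursor, each had 15 counts in both libraries (5.54 and 5.36 TPM). Gm26205 had 14 and 10 counts, Gm26083 16.4 and 6.19, and Gm25395 12 and 9. These 6 genes were chosen after their values were seen, by their mean count.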
